A study of Mus musculus with 6 samples.

Results

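The NRF2 and thiol antioxidant genes are 33 named genes, of 27480 genes in the deposited table, that sense oxidants or remove them through glutathione, thioredoxin, peroxiredoxin, superoxide dismutase and catalase reactions. All 33 were chosen by gene symbol, each matched a single row, and 32 passed the filter on low counts, leaving Nqo1 untested. They were measured by bulk poly(A) RNA sequencing in mouse OT1 CD8+ T cells, cytotoxic lymphocytes that all share 1 transgenic receptor for an ovalbumin (OVA) peptide. The PTMA group (3 libraries) carried an overexpression construct for PTMA (prothymosin alpha), the vector group (3 libraries) the empty overexpression vector. Both groups are labelled wild type and received OVA peptide for 48 h. The labels give no animal age, no promoter of the construct, nor whether replicates are separate animals or cultures. The p-values therefore describe the spread among these 6 libraries, which may be technical. The protocol for extraction refers to adipose material, unlike the labels of cell type, and markers of CD8 T cells are given below.

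NRF2, encoded by Nfe2l2, is a transcription factor that the adaptor KEAP1 holds in the cytosol and hands to a CUL3 ubiquitin ligase. Oxidants and electrophiles modify cysteines of KEAP1, NRF2 then accumulates, pairs with small MAF proteins and binds antioxidant response elements, DNA sites for which BACH1 competes as a repressor. The target genes import cystine, make glutathione, recharge thioredoxin and detoxify quinones and haem. Prothymosin alpha, an acidic nuclear protein, is a known partner of KEAP1. In T cells, glutathione synthesis is known to be needed for growth after activation.

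Total counts were 65548729, 66767589 and 65640178 in PTMA 1 to 3, against 54989408, 62995824 and 63011584 in vector 1 to 3. Counts scaled by library size with TMM factors are given as CPM. Ptma itself had 1152, 1346 and 1272 CPM in PTMA 1 to 3, against 848, 783 and 1146 CPM in vector 1 to 3. Every PTMA library lay above every vector library, but the log2 fold change of 0.44 (SE 0.13, 95% interval 0.14 to 0.74) missed the threshold (Benjamini-Hochberg adjusted p = 0.951, edgeR quasi-likelihood test). Whether RNA of the construct is counted under the mouse gene cannot be told from the labels, which do not name its species. Of 16592 genes tested, 2 passed, which is 0.0121%. All 8 markers of CD8 T cells were measured in every library, their sum being 2355 to 2481 FPKM in the PTMA libraries, against 2293 to 2458 FPKM in the vector libraries. Of other cell types, 7 oocyte markers summed to 0.801 to 2.22 CPM in the PTMA libraries, against 17.9 to 28.1 CPM in the vector libraries. Most of this was Gdf9, which averaged 1.25 CPM in PTMA and 18.8 CPM in vector libraries. Gdf9 was among the 2 genes that passed (edgeR adjusted p = 0.0397), and DESeq2 called 4 of these markers. Nlrp5 and Figla had overlapping groups. The 6 dendritic cell markers summed to 17.3 to 22.5 CPM in the PTMA libraries, against 10.5 to 12.5 CPM in the vector libraries. These 6 were not alike. Ccl22 averaged 6.76 CPM in PTMA and 1.22 CPM in vector libraries, and Fscn1 1.71 and 0.248 CPM. DESeq2 called both (adjusted p = 9.07e-08 and 8.72e-05), and edgeR called neither (adjusted p = 0.199 and 0.318). Xcr1 averaged 8.26 and 7.58 CPM and Zbtb46 1.73 and 2.49 CPM, both with overlapping groups. Flt3 and Ccl17 were low but also higher on average in PTMA libraries, with overlapping groups. Flt3 averaged 0.675 CPM in PTMA and 0.107 CPM in vector libraries, and Ccl17 0.0613 and 0 CPM. The 5 keratinocyte markers summed to 10.7, 2.59 and 1.37 CPM in PTMA 1 to 3, against 1.86, 19.6 and 29.0 CPM in vector 1 to 3. Erythroid markers, 4 of which had a row, summed to 0.0765 to 0.183 CPM in the PTMA libraries, against 0.321 to 0.548 CPM in the vector libraries, and 4 macrophage and monocyte markers to 12.5 to 14.3 CPM in the PTMA libraries, against 9.64 to 12.5 CPM in the vector libraries, with Csf1r at most 0.0967 CPM. The 5 fibroblast markers summed to 1.67 to 4.31 CPM in the PTMA libraries, against 1.41 to 8.50 CPM in the vector libraries. Vector 3 held the highest CPM of all 6 libraries for 13 of the 32 tested members (40.6%), and PTMA 2 for 12. Over all genes tested vector 3 was highest for 22.4%, and over those with a mean of at least 10 FPKM for 30.7%. Values without vector 3 are given after those of the groups. The part of other cell types in the values below was not tested, and in bulk RNA fewer cells of a type and less RNA per cell cannot be told apart.

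The stretches shown here carry the letters TGACNNNGC, the core of the antioxidant response element, in the RefSeq promoter windows (build GRCm38.p6, 250 bases before to 50 after a start) of the members. Some genes have several starts and so several windows. They are shown because NRF2 is known to bind such letters. Of 29 members with a window, 6 held a match on either strand, 20.7%, against 14.0% of 27025 genes with a window. A gene counts here if any of its windows holds a match. Counted by window, 6 of 38 member windows held a match, against 4071 of all 32851 windows, or 12.4%. Each stretch is written 5′ to 3′ on the gene's strand with the match in capitals, and a match on the other strand appears as its reverse complement.
Gclm: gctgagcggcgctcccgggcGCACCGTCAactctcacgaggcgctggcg
Prdx1: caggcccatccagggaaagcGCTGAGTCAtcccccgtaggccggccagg
Nfe2l2: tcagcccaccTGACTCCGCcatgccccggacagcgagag
Sod1: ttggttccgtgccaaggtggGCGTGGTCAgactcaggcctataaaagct
Txnrd1: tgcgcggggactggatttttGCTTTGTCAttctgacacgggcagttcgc
The Gclm stretch lies at chr3:122245403-122245451 (plus strand), that of Prdx1 at chr4:116685446-116685494 (plus), that of Nfe2l2 at chr2:75704875-75704913 (minus), that of Sod1 at chr16:90220686-90220734 (plus) and that of Txnrd1 at chr10:82859094-82859142 (plus). The Prdx1 match also holds the AP-1 motif TGACTCA, which 4 members and 5.95% of all genes with a window contain. Txnrd1 has 3 windows, and its stretch is from a window at a later start, inside the gene, which begins at chr10:82833951. The sixth member, Srxn1, had its match 28 bases after the start and is not shown. A match is a description of letters and not a binding site. Log2 fold changes of PTMA over vector were -0.11 to 0.12 in the 6 members with a match (median 0.09) and -0.27 to 0.19 in the 22 tested members with a window and no match (median 0.09).

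The members spanned a wide range of levels, compared per length as FPKM averaged over the 6 libraries. Gpx1, a glutathione peroxidase that reduces hydrogen peroxide, was highest at 163 FPKM, followed by the cytosolic thioredoxin Txn1 at 146 FPKM. Gpx4, which reduces lipid peroxides, stood at 104 FPKM, the glutathione transferase Gstp1 at 103 FPKM and the peroxiredoxin Prdx1 at 98.1 FPKM. These 5 members held 47.9% of the summed FPKM of all 33. Neighbours in this order were close: Gpx1 averaged 169 ± 13.8 FPKM in PTMA cells and 158 ± 10.4 FPKM in vector cells (SD, n = 3 each), and Txn1 151 ± 5.59 FPKM in PTMA cells and 142 ± 25.0 FPKM in vector cells (SD, n = 3 each), and their ranges overlapped in both groups. At the other end, 30 members averaged at least 1 FPKM, and the 3 below were Bach1 at 0.808 FPKM, Nqo1 at 0.0881 FPKM and the cystine importer subunit Slc7a11 at 0.0303 FPKM. Peroxidases and peroxiredoxins thus filled much of the upper end, while Hmox1, Srxn1, Nqo1 and Slc7a11, of the 6 members grouped as NRF2 targets, were near the lower end. This does not hold for NRF2 targets in general. Gclc and Gclm of the same group averaged 14.0 and 3.34 FPKM. The 23 further NRF2 targets taken up below ranged from Mgst1 at 0.0134 FPKM to the ferritin gene Ftl1 at 763 FPKM.

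**Figure D1:**
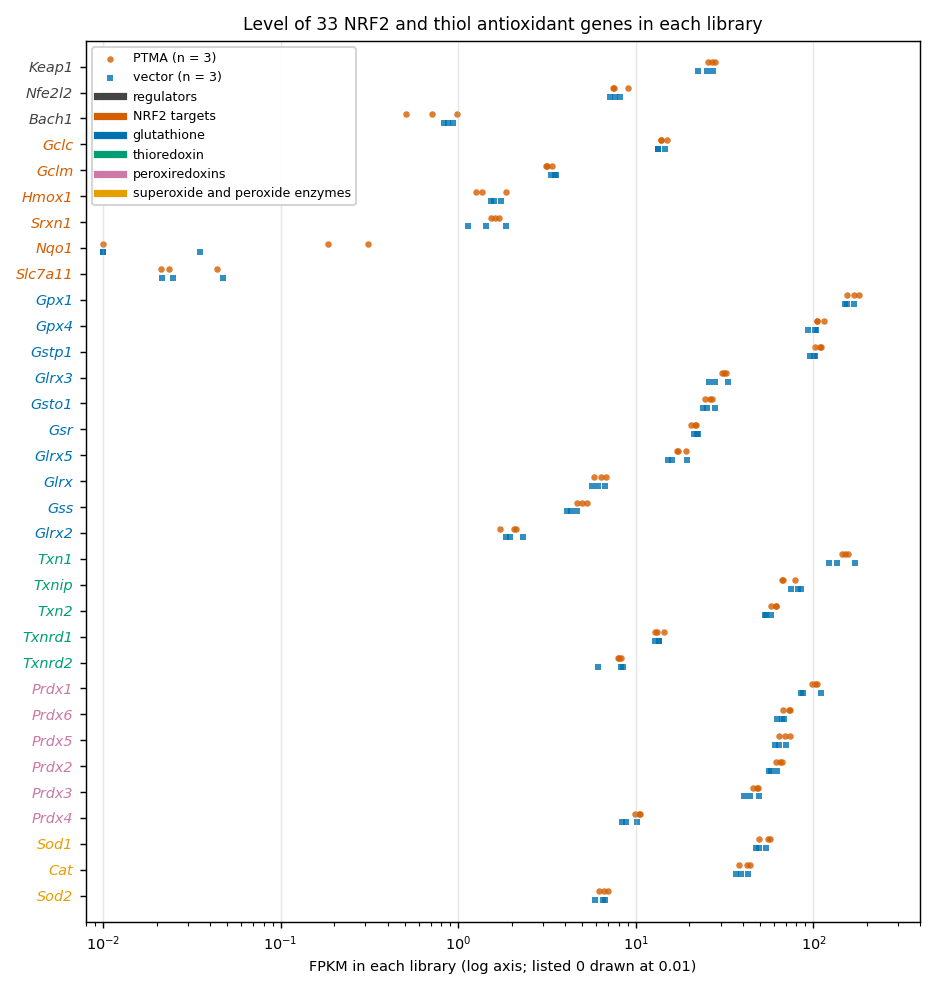
FPKM of each of 33 members (rows, ordered by level within 6 groups) in each library on a log axis, with 3 PTMA libraries as circles above 3 vector libraries as squares. Gpx1 and Txn1 lie near the right edge, at 163 and 146 FPKM on average, and Slc7a11 and Nqo1 at the left, below 1 FPKM in every library, with values listed at 0 drawn at the left end.

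Between PTMA and vector cells no member passed the test over all genes. In edgeR 0 of 32 tested members passed, where 0.0121% of all genes did, and 0 had an unadjusted p under 0.05, where 4.65% of all genes did (1.92% higher and 2.72% lower in PTMA cells). DESeq2 also called 0, where it called 0.253% of all genes, and gave 1 member, Txn2, an unadjusted p under 0.05, where 5.48% of all genes had one. The smallest adjusted p of a member was 0.951 in edgeR. The log2 fold changes were small: 25 of 32 were positive and 7 negative, with a median of 0.09 over the members and -0.01 over all genes tested, and 22 were positive when counts were scaled by library totals. Between single libraries of a group, the standard deviation of the members' median deviation was 0.10 on the log2 scale. That is the spread of single libraries and not the error of a difference between group means, which was not computed. Positive values made up 46.8% of all genes tested. The 95% interval lay within 1.5-fold in both directions for 28 of 32 members, the exceptions being Bach1, Hmox1, Srxn1 and Slc7a11.

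**Figure D2:**
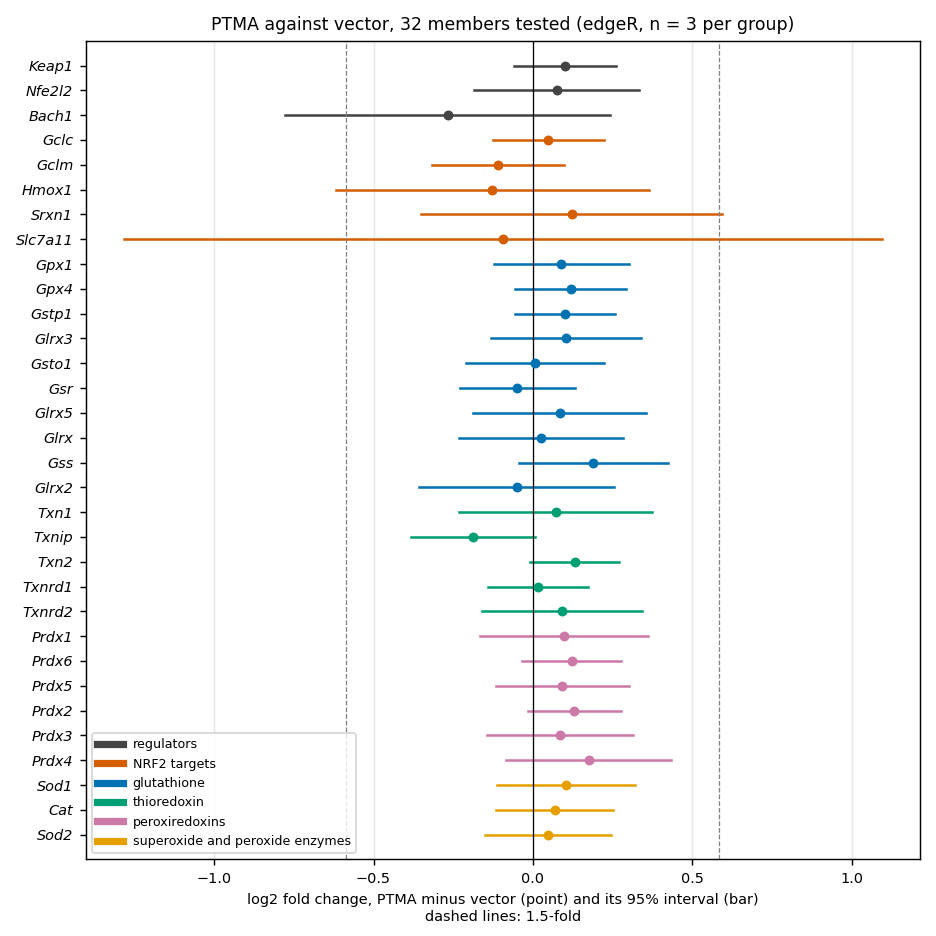
Log2 fold change of PTMA over vector with its 95% interval for the 32 members tested (rows, coloured by group), edgeR with n = 3 libraries per group. Every interval includes 0, and 28 lie between the dashed lines at 1.5-fold.

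Abundant genes as a whole leaned the same way. Of 4782 tested genes with a mean of at least 10 FPKM, a limit chosen after the values were seen, 67.7% had a positive log2 fold change, with a median of 0.05. Of the 20 members above that limit 18 were positive, with a median of 0.09, and of the 12 below it 7 were positive, with a median of 0.04. The groups did not overlap in 2 members with PTMA higher, Txn2 and Prdx2, and in 1 with PTMA lower, Gclm. Among all genes tested 5.39% had PTMA higher and 5.38% PTMA lower without overlap, and among those of at least 10 FPKM 11.1% and 1.9%. The members' counts are near these shares.

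**Figure D3:**
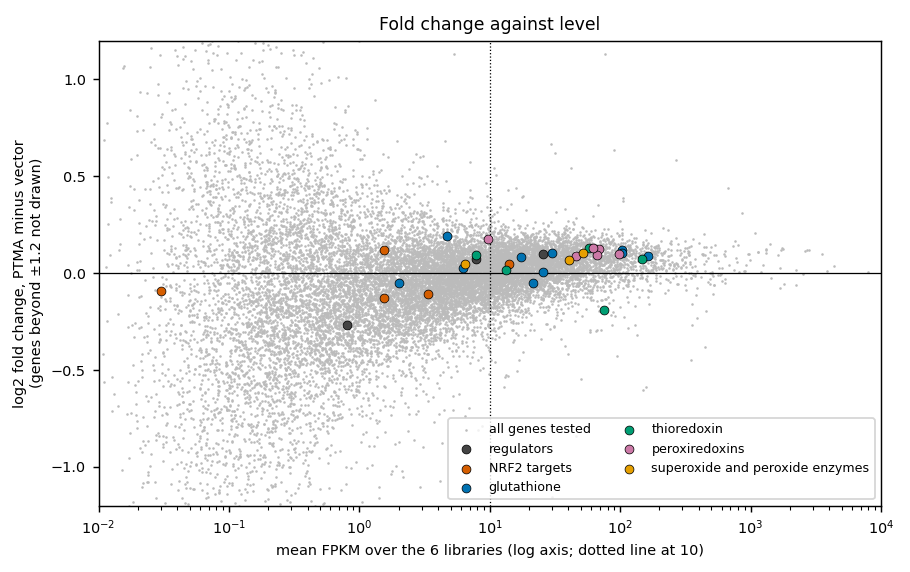
Log2 fold change of PTMA over vector (vertical axis) against mean FPKM over the 6 libraries (log axis), with tested genes in grey and members coloured by group. The 20 members right of the dotted line at 10 FPKM have a median of 0.09, where all 4782 genes there have 0.05.

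The regulators did not differ beyond the spread between libraries. Nfe2l2, the gene of NRF2 (chr2:75675513-75704641 on GRCm38), had 31.5, 38.7 and 31.6 CPM in PTMA 1 to 3, against 30.6, 30.6 and 35.4 CPM in vector 1 to 3. PTMA 2 was the highest of the 6 libraries and the groups overlapped, with a log2 fold change of 0.07 (SE 0.11, 95% interval -0.18 to 0.33) and an adjusted p of 0.957 (edgeR). Keap1, the gene of the NRF2 inhibitor (chr9:21229730-21239361), had 145, 135 and 138 CPM in PTMA 1 to 3, against 132, 136 and 122 CPM in vector 1 to 3. The lowest PTMA library was below the highest vector library, and the log2 fold change was 0.10 (SE 0.07, 95% interval -0.06 to 0.26), with an adjusted p of 0.951 (edgeR). Bach1, which encodes the competing repressor (chr16:87698945-87733346), had 4.91, 3.54 and 6.69 CPM in PTMA 1 to 3, against 6.52, 5.78 and 5.93 CPM in vector 1 to 3. The spread was within the PTMA libraries, PTMA 2 being the lowest of the 6 and PTMA 3 the highest, and the log2 fold change was -0.27 (SE 0.23, 95% interval -0.78 to 0.24). Per length, the ratio of Keap1 to Nfe2l2 was 3.72, 2.81 and 3.54 in PTMA 1 to 3, against 3.49, 3.59 and 2.78 in vector 1 to 3, lower in PTMA 2 and vector 3 than in the other libraries.

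Of the 6 NRF2 targets for cystine uptake, glutathione synthesis and quinone or haem handling, 5 were tested, of which 2 had positive and 3 had negative values (median log2 fold change -0.09). Nqo1, a quinone reductase and a common readout of NRF2 (chr8:107388225-107403206), had raw counts of 35, 0 and 21 in PTMA 1 to 3, against 0, 4 and 0 in vector 1 to 3. Counts were thus seen in 2 PTMA libraries and 1 vector library, and a library with 0 counts could hide up to 3, or 0.0459 CPM in PTMA 2, 0.0536 CPM in vector 1 and 0.0484 CPM in vector 3, for counting error only. With PTMA 2 at 0 the groups overlapped. Hmox1, haem oxygenase (chr8:75093621-75100589), had 2.65, 2.51 and 3.59 CPM in PTMA 1 to 3, against 3.04, 2.97 and 3.55 CPM in vector 1 to 3. Its 2 highest values were in PTMA 3 and vector 3, and the log2 fold change was -0.13 (SE 0.22, 95% interval -0.62 to 0.36).

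Srxn1, sulfiredoxin, which repairs overoxidised peroxiredoxins (chr2:152105516-152109322), had 4.84, 5.10 and 5.31 CPM in PTMA 1 to 3, against 3.61, 4.32 and 6.08 CPM in vector 1 to 3. The vector libraries enclosed all 3 PTMA libraries, and the log2 fold change was 0.12 (SE 0.21, 95% interval -0.35 to 0.59). Slc7a11, the cystine importer subunit (chr3:49892526-50443614), had 0.339, 0.689 and 0.365 CPM in PTMA 1 to 3, against 0.339, 0.372 and 0.774 CPM in vector 1 to 3, with PTMA 2 and vector 3 at about the same higher level. Its log2 fold change of -0.09 (SE 0.53, 95% interval -1.28 to 1.10) had the widest interval of the members. The glutathione-making ligase has a catalytic subunit, Gclc (chr9:77754535-77794485), and a modifier subunit, Gclm (chr3:122245557-122270732). Gclc had 57.8, 63.5 and 57.4 CPM in PTMA 1 to 3, against 56.6, 58.7 and 57.5 CPM in vector 1 to 3, a log2 fold change of 0.05 (SE 0.08, 95% interval -0.13 to 0.22). Gclm had 23.5, 22.2 and 21.7 CPM in PTMA 1 to 3, against 23.6, 23.8 and 25.4 CPM in vector 1 to 3. All 3 PTMA libraries were below all 3 vector libraries, by a small margin between PTMA 1 and vector 1, and the log2 fold change was -0.11 (SE 0.09, 95% interval -0.32 to 0.10) with an adjusted p of 0.952 (edgeR). The Gclc to Gclm ratio per length was 4.1, 4.78 and 4.42 in PTMA 1 to 3, against 4.01, 4.12 and 3.79 in vector 1 to 3. The promoter stretches above include that of Gclm, a member with a negative value.

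In the glutathione group, positive values were seen in 8 of 10 members (median log2 fold change 0.09), of which Glrx and Gsto1 were negative under scaling by library totals. Gss, glutathione synthetase (chr2:155563181-155592810), had 30.6, 35.5 and 32.3 CPM in PTMA 1 to 3, against 27.3, 27.1 and 31.8 CPM in vector 1 to 3. Vector 3 lay above PTMA 1, so the groups overlapped, and the log2 fold change was 0.19 (SE 0.10, 95% interval -0.04 to 0.43), the highest of the members (edgeR adjusted p = 0.951). Gpx4 (chr10:80047166-80056439) had 201, 223 and 198 CPM in PTMA 1 to 3, against 181, 186 and 205 CPM in vector 1 to 3, a log2 fold change of 0.12 (SE 0.08, 95% interval -0.06 to 0.29). Gpx1 (chr9:108338903-108340343) had 273, 294 and 244 CPM in PTMA 1 to 3, against 244, 236 and 282 CPM in vector 1 to 3, a log2 fold change of 0.09 (SE 0.09, 95% interval -0.12 to 0.30). In all 3 genes vector 3 was the highest vector library and reached into the PTMA range. The other positive members were the glutaredoxins Glrx3 (0.11), Glrx5 (0.08) and Glrx (0.02), which reduce disulfides with glutathione or carry iron-sulfur clusters, and the glutathione transferases Gstp1 (0.10) and Gsto1 (0.01). The negative members were Gsr, which regenerates reduced glutathione (-0.05), and the glutaredoxin Glrx2 (-0.05).

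In the thioredoxin group, 4 of 5 log2 fold changes were positive, with a median of 0.07 (Txnrd1 was negative under scaling by library totals). Txnip, which binds thioredoxin and blocks it (chr3:96557957-96561883), had 232, 236 and 269 CPM in PTMA 1 to 3, against 262, 270.4 and 307 CPM in vector 1 to 3. It was the negative member of the group, with PTMA 3 above vector 1 and so overlapping groups, and its log2 fold change was -0.19 (SE 0.09, 95% interval -0.38 to 0.01), with the smallest unadjusted p of the members, 0.0561 (edgeR, adjusted p = 0.951). Txn2, the mitochondrial thioredoxin (chr15:77915047-77928974), had 287, 291 and 267 CPM in PTMA 1 to 3, against 256, 257 and 259.9 CPM in vector 1 to 3. The 3 vector libraries lay close together and all below the PTMA libraries, with a log2 fold change of 0.13 (SE 0.06, 95% interval -0.01 to 0.27) and an adjusted p of 0.951 (edgeR). Txn1, the cytosolic thioredoxin (chr4:57943373-57956411), had 177, 184 and 167 CPM in PTMA 1 to 3, against 159.6, 136 and 206 CPM in vector 1 to 3. Vector 2 was the lowest and vector 3 the highest of the 6 libraries, and the log2 fold change was 0.07 (SE 0.13, 95% interval -0.23 to 0.37). The Txn1 to Txnip ratio per length was 2.26, 2.32 and 1.85 in PTMA 1 to 3, against 1.81, 1.5 and 2.0 in vector 1 to 3, with overlapping groups. The thioredoxin reductases, selenoproteins that recharge thioredoxin with NADPH, had log2 fold changes of 0.02 for cytosolic Txnrd1 and 0.09 for mitochondrial Txnrd2.

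All 6 peroxiredoxins, thiol enzymes that reduce peroxides, had positive log2 fold changes, 0.09 to 0.17 with a median of 0.11. Prdx2 (chr8:84969587-84974834) had 226, 221 and 208 CPM in PTMA 1 to 3, against 193, 202 and 204 CPM in vector 1 to 3. Every PTMA library was above every vector library, PTMA 3 by a small margin, and the log2 fold change was 0.13 (SE 0.06, 95% interval -0.02 to 0.28) with an adjusted p of 0.951 (edgeR). Prdx6 (chr1:161240112-161251219) had 389, 399 and 357 CPM in PTMA 1 to 3, against 337, 347 and 367 CPM in vector 1 to 3, with PTMA 3 below vector 3, and a log2 fold change of 0.12 (SE 0.07, 95% interval -0.03 to 0.28). Prdx1 (chr4:116685544-116700822) had 344, 358 and 329.6 CPM in PTMA 1 to 3, against 292, 283 and 389 CPM in vector 1 to 3. Its vector 3 value was the highest of the 6, and the log2 fold change was 0.10 (SE 0.12, 95% interval -0.17 to 0.36). Mitochondrial Prdx3 (0.09), Prdx4 of the secretory pathway (0.17) and Prdx5 (0.09) also had overlapping groups.

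The superoxide dismutases Sod1 (cytosolic) and Sod2 (mitochondrial) and the peroxide-splitting catalase Cat had positive values too. Sod1 (chr16:90220754-90226329) had 246, 255 and 215 CPM in PTMA 1 to 3, against 220.1, 199.6 and 246 CPM in vector 1 to 3, with PTMA 3 below vector 1 and vector 3 and a log2 fold change of 0.10 (SE 0.10, 95% interval -0.11 to 0.32). Cat (chr2:103453849-103485160) had 110.4, 129 and 121 CPM in PTMA 1 to 3, against 108, 119 and 117 CPM in vector 1 to 3, with overlapping groups and a log2 fold change of 0.07 (SE 0.08, 95% interval -0.11 to 0.25). That of Sod2 was 0.05. Of 6 members listed for the mitochondrial matrix (Txn2, Txnrd2, Prdx3, Sod2, Glrx2 and Glrx5), 5 were positive, with a median of 0.09. Of the 26 tested members not in that list 20 were positive, with a median of 0.08. The list need not hold every member with a mitochondrial form. The 4 selenoproteins Gpx1, Gpx4, Txnrd1 and Txnrd2 were all positive, with a median of 0.09, except Txnrd1 under scaling by library totals (-0.0109). Both of these lists were written after the values had been seen.

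Much of the spread between vector libraries came with vector 3. The summed CPM of all 33 members was 3873, 4039 and 3737 CPM in PTMA 1 to 3, against 3544, 3512 and 4021 CPM in vector 1 to 3, so vector 3 stood among the PTMA libraries. Of the 32 tested members 13 were highest of all in vector 3 (40.6%), where 22.4% of all genes tested and 30.7% of those of at least 10 FPKM were. PTMA 2 was highest for 12 members (37.5%), where it was for 15.6% of all genes tested and 25.7% of those of at least 10 FPKM. Vector 1 was lowest for 10 members (31.2%), where it was for 14.5% of all genes and 20.1% of those of at least 10 FPKM. Vector 2 was lowest for 13 members (40.6%), where it was for 20.6% and 34.8%. The coefficient of variation of the 32 tested members had a median of 5.8% over the PTMA libraries and 9.5% over the vector libraries. All genes tested had 10.3% and 14.1%, and those of at least 10 FPKM 5.35% and 8.11%. Ptma itself was highest in vector 3 among the vector libraries.

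**Figure D4:**
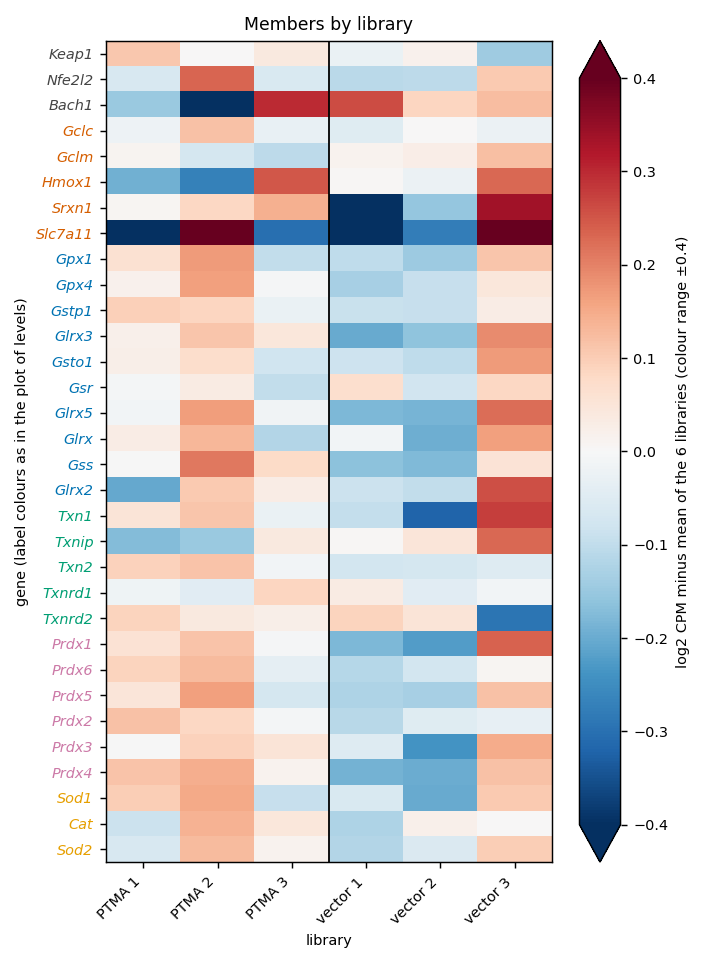
Log2 CPM of each tested member (rows) minus its mean over the 6 libraries, for PTMA 1 to 3 (left) and vector 1 to 3 (right). Red is above and blue below that mean: vector 1 and vector 2 are mostly blue, while PTMA 2 and vector 3 are mostly red, holding the highest value of 12 and 13 members.

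Vector 3 was singled out from these same values, being the highest vector library for 26 of the 32 tested members. Leaving it out therefore raises most of their fold changes. It also narrows the vector spread, to a median coefficient of variation of 2.07% over vector 1 and vector 2. All genes tested had 7.80% over these 2 libraries, and those of at least 10 FPKM 3.46%. The p-values without vector 3 are thus a description and no evidence of a difference. Without vector 3 the median log2 fold change of the members was 0.14, and 26 of 32 were positive, where 48.8% of all genes tested were. Of the 32, 13 then had an unadjusted p under 0.05, all with PTMA higher, where 15.8% of all genes tested had one in either direction and 7.7%, or 21.1% of those of at least 10 FPKM, with PTMA higher. They still did not pass the test, the smallest adjusted p being 0.161 for Prdx1 (edgeR, without vector 3), where 3 genes or 0.0181% passed. Prdx1 then had a log2 fold change of 0.26, Txn1 one of 0.25, Glrx3 0.24, Glrx5 0.23, Gss 0.27 and Prdx4 0.29. Without vector 2 in its place, Prdx1 had 0.02, Txn1 -0.05, Glrx3 0.06, Glrx5 0.02, Gss 0.15, Prdx4 0.12 and Prdx3 0.0009, and without vector 1 Prdx1 had 0.04, Txn1 0.04, Glrx3 0.04, Glrx5 0.02, Gss 0.16, Prdx4 0.13 and Prdx3 0.08. In 17 members every PTMA library then lay above vector 1 and vector 2, where 17.4% of all genes tested and 38.4% of those of at least 10 FPKM did. In 1 member, Gclm, every PTMA library lay below both, where 17.8% of all genes tested did. Txnrd2 and Keap1 went the other way, with vector 3 their lowest library. Without vector 3 their log2 fold changes were -0.02 for Txnrd2 and 0.05 for Keap1. Without vector 1, vector 2 or PTMA 2 in turn, the members' median was 0.035 to 0.0408. Nothing in the labels sets vector 3 apart from the other vector libraries.

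**Figure D5:**
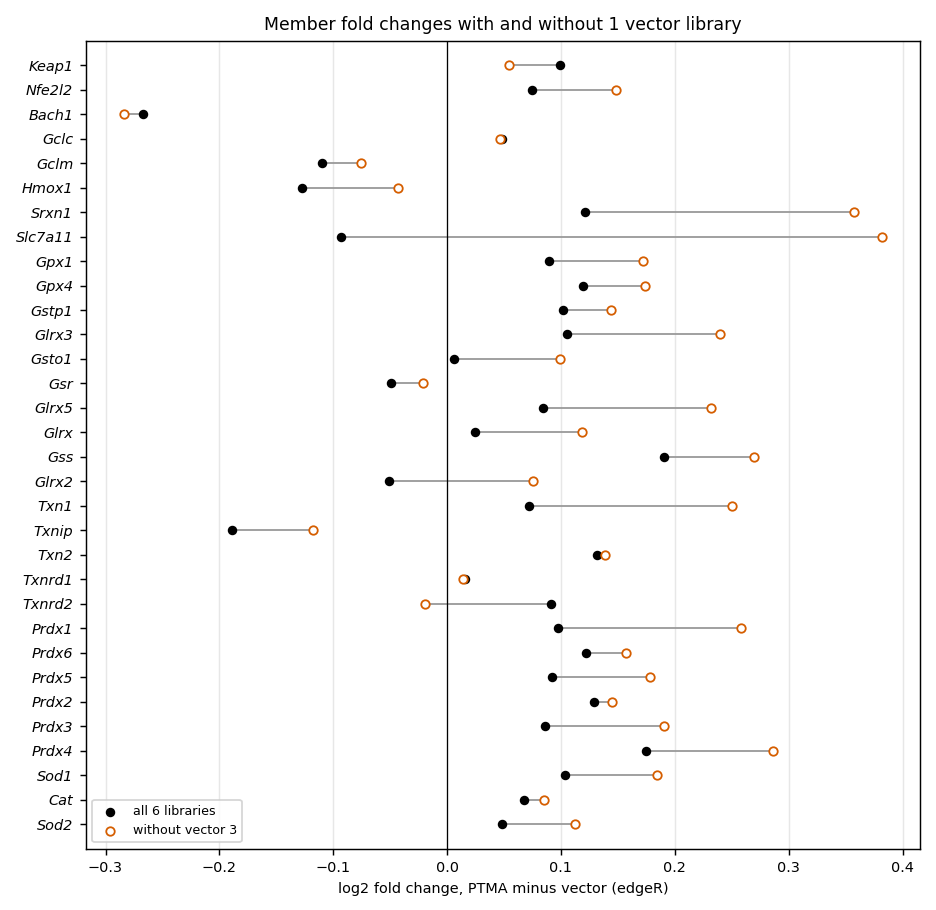
Log2 fold change of PTMA over vector for each tested member with all 6 libraries (black) and without vector 3 (open orange). Most open points lie further right, with a median of 0.14 in place of 0.09, and those of Keap1, Bach1, Gclc, Txnrd1 and Txnrd2 lie further left, by the widest step in Txnrd2.

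The other genes of the pathway gave no call either, 0 in edgeR and 0 in DESeq2 in each of the 7 lists. Of 12 genes of the KEAP1 complex and the partners or relatives of NRF2, 11 were tested and 8 were positive, with a median log2 fold change of 0.06. The smallest unadjusted p was that of Nfe2l1, a relative of NRF2, at -0.16 (SE 0.10). Of 23 further NRF2 targets, among them the pentose phosphate enzymes and ferritins, 22 were tested and 17 were positive (median 0.09). The smallest unadjusted p there was that of Me1, an NADP-linked malic enzyme, which had 0.354, 0.122 and 0 CPM in PTMA 1 to 3, against 0.929, 0.620 and 0.903 CPM in vector 1 to 3. All 3 PTMA libraries were below all 3 vector libraries, PTMA 3 having no count, and the log2 fold change of -2.35 (SE 0.93, 95% interval -4.45 to -0.25) did not pass the test (edgeR unadjusted p = 0.0321, adjusted p = 0.951). Me1 alone of the 22 had an unadjusted p under 0.05, where 4.65% of all genes tested had one. Groups without overlap in either direction were seen in 10.8% of all genes tested. Of 16 tested genes of cysteine and glutathione turnover 10 were positive (median 0.04), Lancl1 having the smallest unadjusted p at 0.15 (SE 0.07). Of 17 thioredoxin-fold and repair genes 13 were positive (median 0.06), the smallest unadjusted p being that of Msrb3, a methionine sulfoxide reductase of at most 0.661 CPM, at -1.11 (SE 0.70).

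Among 12 genes of selenoproteins and their synthesis 9 were positive (median 0.05). Sephs1, a selenophosphate synthetase homologue, had 118, 125 and 126 CPM in PTMA 1 to 3, against 105, 107 and 107 CPM in vector 1 to 3. All 3 PTMA libraries were above all 3 vector libraries, vector 3 included, and the log2 fold change was 0.21 (SE 0.06, 95% interval 0.07 to 0.36), with an unadjusted p of 0.00908 and an adjusted p of 0.951 (edgeR). It is named as the smallest p of the 12 and was the only one under 0.05, where 4.65% of all genes tested were. Without overlap, PTMA was higher in 5.39% of all genes tested. The metallothioneins Mt1 and Mt2 had log2 fold changes of 0.08 and -0.03. Of 6 NADPH oxidase genes 4 were positive (median 0.07), the smallest unadjusted p being that of the GTPase Rac2 at 0.09 (SE 0.06).

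Exons of 7 members overlap those of other genes in GENCODE M21, and the sources used here do not give whether the counts used strand. They are Keap1, Gclm, Gss, Txnrd2, Txnip, Prdx2 (with Rnaseh2a and Junb on the other strand) and Prdx5, with 4 to 19.4% of their exonic bases shared. Gpx4, Txn1, Prdx2 and Prdx6, and also Ptma, have named pseudogenes or related sequences there. Gstp1 has a close paralogue, so reads of all these genes may be split.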

How the data were processed

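Gene counts and levels were measured by poly(A) RNA sequencing in 6 libraries, 3 PTMA and 3 vector, grouped and numbered by the sample titles. Per the file headers, the deposited table of 27480 genes holds raw counts per gene and library, which are not normalized. The same deposited table holds FPKM, which the authors scaled to gene length and depth, per the file headers. The submitters' processing notes list the build mm8 and the tools Bowtie 0.12.2, StringTie 1.3.0 and HISAT2 2.0, without saying what each did. How reads were counted, and whether by strand, is not given in the sources used here. Coordinates in the table are those of GRCm38: all 33 members share a start or end with GENCODE M21.

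The counts were tested with edgeR 4.0.16 in R 4.3.3: TMM scaling, filterByExpr with a minimum count of 10 (16592 genes), the quasi-likelihood test on all 6 libraries with 1 term, the group, and Benjamini-Hochberg adjustment over all genes tested with a threshold of 0.05. Fold changes on the log2 scale give PTMA minus vector, and CPM values are counts scaled by TMM; the floor of a 0 is 3 counts. The procedure was tested on simulated data. Alternatives were median-of-ratios size factors, library totals, no filter, DESeq2 1.42.0, a replicate block, limma 3.58.1 on log2(FPKM + 1) or log2(FPKM + 0.1), and leaving out each library, with the tested genes held fixed. The members and lists were chosen with earlier results of these data known, so no p-value was adjusted over a list alone. Every member is named. Values in all libraries are given for regulators, Ptma and NRF2 targets and, in each other group, for the 2 members with the smallest p and the most abundant one. From each context list the gene with the smallest p is named. Markers without a row in the table were not analysed here. One list of markers is not reported here.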

Additional observations from a re-analysis of the deposited data

How the results depend on the processing

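No member passed the threshold in any of the 14 alternatives, the lowest adjusted p being 0.161 (without vector 3). The number of genes passing over the whole table was 2 in edgeR, also with median-of-ratios size factors and with library totals, 0 with no filter on low counts, 42 with DESeq2, 1 with limma on log2(FPKM + 1) or log2(FPKM + 0.1) with the filter of a mean FPKM of 1, and 0 with limma and no filter. With 1 library left out at a time there were 0 to 3 genes, 0 members passing, 20 to 26 positive members of 32 and a median log2 fold change of the members of 0.04 to 0.14. In the other 8 alternatives 22 to 26 members were positive, the median was 0.06 to 0.10, and 249 of 252 member values kept their direction. The 3 that did not came with library totals: Glrx -0.0017, Gsto1 -0.0199 and Txnrd1 -0.0109. The median of all genes tested was -0.04 on that scale. On leaving out a library, 18 of 192 member values changed sign, and the log2 fold changes of those members ranged as follows: Nfe2l2 -0.0313 to 0.1484, Srxn1 -0.0281 to 0.3571, Slc7a11 -0.4905 to 0.3824, Gclc -0.001 to 0.0774, Glrx -0.0569 to 0.1184, Glrx2 -0.1173 to 0.0751, Gsto1 -0.0374 to 0.0988, Txn1 -0.0512 to 0.2504, Txnrd1 -0.0205 to 0.042, Txnrd2 -0.0195 to 0.165, Sod2 -0.0037 to 0.1127. The cause was not tested. Deviations from the group means correlated at -0.12, -0.16 and -0.12 between libraries of the same number, and at 0.02 to 0.10 between the others. Such weak values cannot tell whether libraries of the same number share an animal or culture. The labels give no pairs, so the main test did not use the numbers. A replicate block gave 0 genes, 0 members passing, 25 positive members and a median of 0.09. Low counts limit Nqo1 and Slc7a11.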
